A study of Mus musculus with 4 samples.

Results

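The genes described here are those of the interleukin 17 (IL-17) cytokines and their receptor chains, in mouse CD4 T cells that were driven towards the TH17 fate with or without the BET inhibitor JQ1. The family was taken by name as 10 genes, 6 cytokines (Il17a, Il17f, Il17b, Il17c, Il17d and Il25) and 4 receptor chains (Il17ra, Il17rb, Il17rc and Il17re). All 10 had an array row that is annotated to 1 gene, out of 14860 named genes in all, and each had a single such row, so none was dropped. The study held 4 samples, 2 with 150 nM JQ1 and 2 with its solvent DMSO, and RNA was taken at 48 hours. The titles call the 2 DMSO samples untreated. All 4 samples came from C57BL/6 mice and received the same culture. Naive CD4 T cells, separated from spleen with magnetic beads to a purity above 90%, were stimulated with beads that carry antibodies against CD3 and CD28. The medium held 5 ng/ml TGF-β1, 20 ng/ml IL-6, 20 ng/ml IL-23 and blocking antibodies against IFN-γ and IL-4 at 10 μg/ml each. A stimulation of 4 days is also mentioned in the labels, but every title and time label says 48 hours, which was used. No age of the mice is stated in the labels, nor whether replicates came from separate animals or cultures, so p-values reflect only the variation among these 4 arrays, and that variation may be technical.

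IL-17A and IL-17F are secreted by TH17 cells as dimers and act through a receptor built of IL-17RA and IL-17RC, mostly on epithelial and stromal cells, where they call in neutrophils. IL-17RA is the shared chain of the family: it pairs with IL-17RB to bind IL-25 and with IL-17RE to bind IL-17C. Inside the cell the receptors recruit the adaptor Act1, encoded by Traf3ip2, and the ubiquitin ligase TRAF6. JQ1 occupies the acetyl-lysine pockets of BET proteins, which otherwise sit on acetylated chromatin and promote transcription. The comparison asks how the transcripts of this family differ when those pockets are occupied during TH17 differentiation.

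Each array gave 1 log2 signal per row. Values of different genes come from different probes, so their levels have no order here, and between genes only changes were set side by side. The arrays carry no detection calls, and the 95th percentile of the mean signals of 800 olfactory and vomeronasal receptor genes, 5.80, served as a background reference that was chosen with the data known. Pearson r across the 14860 genes was 0.982 between the JQ1 arrays, 0.981 between the DMSO arrays and 0.976 to 0.980 between the groups, where genes are not independent replicates. The 7 measured T cell markers, Cd4 and the CD3 chains among them, had mean log2 signals per array of 10.4 to 10.5 with JQ1 and 10.5 to 10.8 with DMSO. Of the markers of other cells, all 3 measured of NK cells, 4 of 5 of myeloid cells and both erythroid ones lay under the background reference in each group. Of the 5 B cell markers 4 lay under it with JQ1 and 2 with DMSO, and of the 4 epithelial markers 2 in each group. Of the 4 measured markers of TH2, ILC2 and NKT cells, 2 lay under it in each group. Il4 (log2 change -0.57) and Gata3 (0.33) lay above it, neither at an unadjusted limma p under 0.05. The 2 CD8 T cell markers had mean log2 signals per array of 5.52 to 6.08 with JQ1 and 6.45 with DMSO, and Cd8a had a log2 change of -0.73 at an unadjusted limma p of 0.013 (adjusted p = 0.389). The T cell marker Thy1 read 9.70 and 10.03 with JQ1, against 10.77 and 10.39 with DMSO, a log2 change of -0.71 (limma adjusted p = 0.390). The epithelial marker Cldn4 read 6.29 and 5.81 with JQ1, against 6.64 and 6.90 with DMSO, a log2 change of -0.72 (limma adjusted p = 0.398). The other 6 T cell markers had log2 changes from -0.27 (Cd2) to -0.04 (Cd3d), none at an unadjusted limma p under 0.05. The other 3 epithelial markers, Epcam (0.06), Krt18 (-0.01) and Cdh1 (-0.16), were not at that level either. The part of Cd8a, Thy1 and Cldn4 in the results below was not tested. In bulk RNA, fewer cells that make a transcript and less of it per cell cannot be told apart.

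Il17f and Il17a were the 2 members with clearly separate values in the treatment groups, and both were lower with JQ1. No member passed the test over all genes, limma's moderated test with Benjamini-Hochberg adjustment and a threshold of 0.05, which 0.00673% of all genes passed. At an unadjusted p under 0.05 there were 2 members, Il17f and Il17a, while 9.98% of all genes were at that level. Both were lower, against 8.26% of all genes, and none was higher, against 1.72%. The same pair were at least 2-fold lower, as were 1.02% of all genes, and no member was at least 2-fold higher, as were 0.283%. The remaining 8 members had log2 changes between -0.26 and 0.22, with adjusted p from 0.715 to 0.989. The median change of the 10 members was -0.02, beside -0.09 for all genes.

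**Figure D1:**
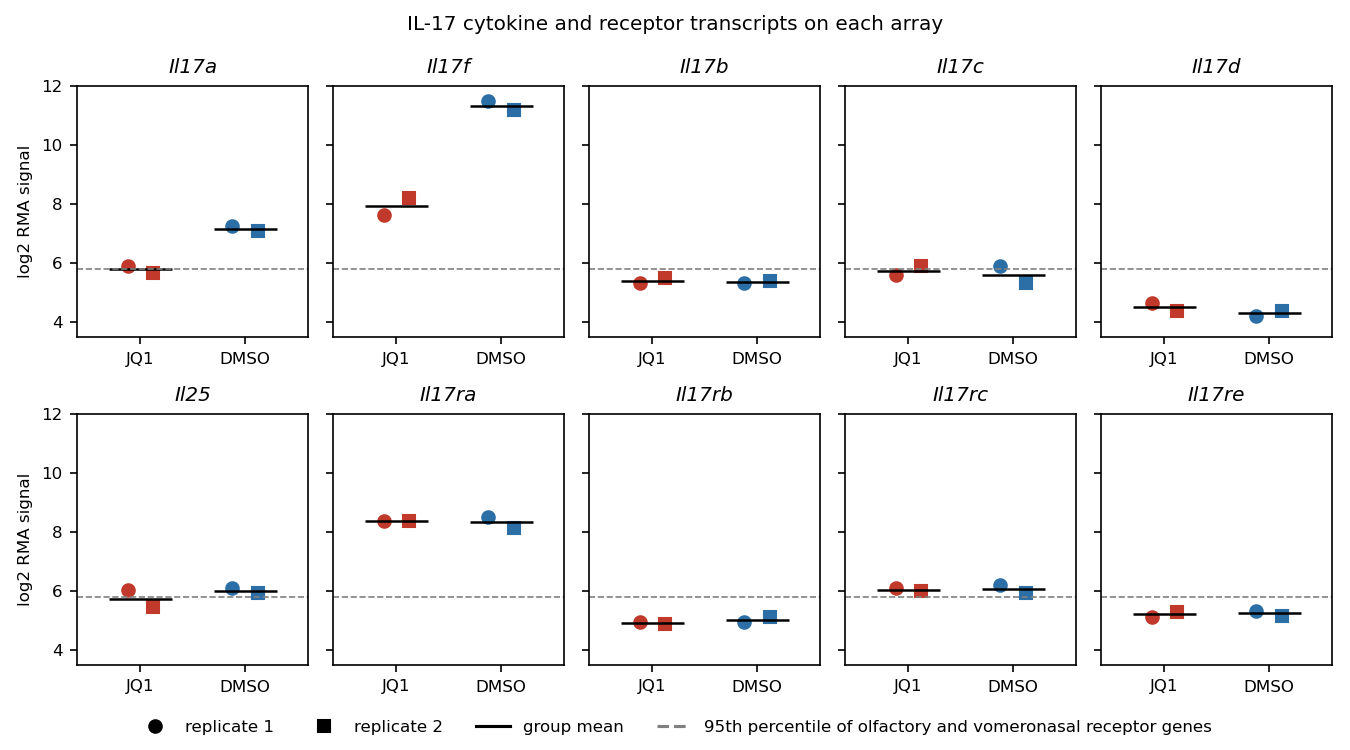
The log2 signal of each member on each array (vertical axis) is shown for the JQ1 and DMSO groups (horizontal axis). Circles and squares are replicates 1 and 2, solid bars are group means (n = 2), and the dashed line is the background reference of 5.80. Il17f and Il17a lie lower on both JQ1 arrays by more than their replicates differ, and the other 8 genes lie close together in the groups.

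Il17f (Entrez gene 257630), on chromosome 1, encodes IL-17F. Its log2 signal was 7.65 and 8.22 on the JQ1 arrays, against 11.51 and 11.17 on the DMSO arrays. The groups lay 2.96 apart at their nearest values, while replicates differed by 0.57 with JQ1 and 0.33 with DMSO. The means were 7.93 ± 0.40 with JQ1 and 11.34 ± 0.24 with DMSO (SD, n = 2 each), a log2 change of -3.41 (SE 0.24, 95% interval -4.02 to -2.80). That is a 10.6-fold lower signal, with an interval from 6.94 to 16.2-fold. Of all 14860 genes, 1 had a larger measured drop, the granzyme gene Gzmb. The limma p was 1.82e-05 before and 0.0901 after adjustment over all genes. Even with JQ1 both arrays stayed above the background reference, so the transcript was lower but still measured there.

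Il17a (Entrez gene 16171), its neighbour on chromosome 1, encodes IL-17A, the cytokine for which the TH17 cell is named. Its log2 signal was 5.90 and 5.68 on the JQ1 arrays, against 7.25 and 7.08 on the DMSO arrays. The nearest values of the groups were 1.18 apart, and replicates differed by 0.22 with JQ1 and 0.16 with DMSO. The means were 5.79 ± 0.16 with JQ1 and 7.16 ± 0.11 with DMSO (SD, n = 2 each). The log2 change was -1.37 (SE 0.16, 95% interval -1.78 to -0.97), a ratio of 2.59 between the measured signals. The limma p was 0.000249 unadjusted and 0.194 adjusted over all genes. With JQ1 its mean sat at the background reference, 1 array above and 1 below, whereas both DMSO arrays were above. With the lower JQ1 array set to the reference, the ratio was 2.49. The limma 95% interval of the measured ratio ran from 1.95 to 3.43.

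For each of the pair the exact two-sided permutation test over the 4 arrays gave p = 0.333, the smallest that 2 arrays against 2 allow. Whether the adjusted test passed differed between settings. Among genes above the median signal, the limma adjusted p was 0.00448 for Il17f and 0.0302 for Il17a. Il17a passed that filter, a mean above 6.02, through its DMSO arrays, so its value there is no support. Among genes above the 25th percentile it was 0.0156 for Il17f and 0.0739 for Il17a, and with a variance trend 0.0368 for Il17f and 0.139 for Il17a. Over all alternatives tried, the adjusted p ranged from 0.00448 to 0.494 for Il17f and from 0.0302 to 0.571 for Il17a, with the highest values where an array was left out. The log2 change itself stayed between -3.69 and -3.12 for Il17f and between -1.48 and -1.26 for Il17a. Relative to the median change of all genes the values were -3.32 and -1.29. That median moved to 0.03 after centring and 0.02 after a further quantile normalization.

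Side by side, the log2 changes were -3.41 for Il17f and -1.37 for Il17a, a difference of -2.03 between them. It lay between -2.43 and -1.64 with any 1 array left out. The exact two-sided permutation test gave p = 0.333, the smallest possible. Since Il17a lay at the background reference with JQ1, its own drop may be understated, and the difference has no exact size.

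**Figure D2:**
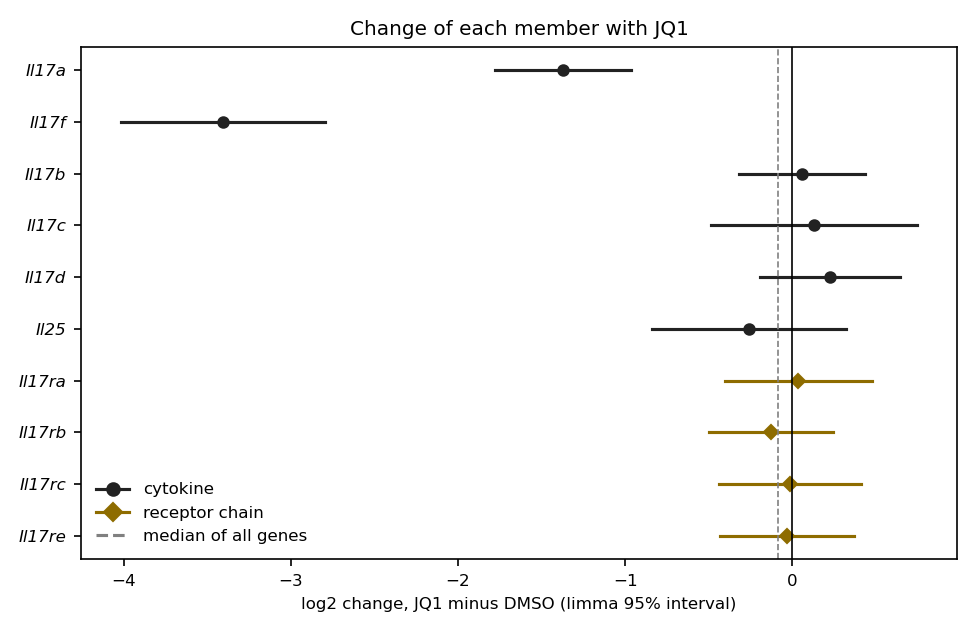
The log2 change of each member, JQ1 minus DMSO, is drawn on the horizontal axis with limma's 95% interval (n = 2 arrays per group), circles for cytokines and diamonds for receptor chains. The dashed line is the median of all genes, -0.09. The intervals of Il17f (-4.02 to -2.80) and Il17a (-1.78 to -0.97) do not reach 0, and those of the other 8 do.

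The start regions of Il17a and Il17f are shown because these are the 2 members that were lower together. RefSeq promoters, with 250 bases before and 50 after the start site, were matched for 7 of the 10 members in GRCm38.p6. They were searched on both strands for the ROR element core AGGTCA, the STAT element TTCNNNGAA, the AP-1 element TGANTCA, the NFAT core GGAAA and the TATA box TATAAA. Capitals mark every match, and no matches overlapped. The Il17a region is chr1:20730655-20730954 on the plus strand and the Il17f region chr1:20784221-20784520 on the minus strand, each written 5′ to 3′ in the direction of its gene.
Il17a: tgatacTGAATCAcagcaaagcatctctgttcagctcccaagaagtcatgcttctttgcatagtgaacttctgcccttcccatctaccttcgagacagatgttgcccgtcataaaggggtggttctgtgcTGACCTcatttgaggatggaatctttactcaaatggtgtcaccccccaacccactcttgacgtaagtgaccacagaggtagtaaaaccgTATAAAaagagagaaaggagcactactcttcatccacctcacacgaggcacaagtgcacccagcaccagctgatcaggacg
Il17f: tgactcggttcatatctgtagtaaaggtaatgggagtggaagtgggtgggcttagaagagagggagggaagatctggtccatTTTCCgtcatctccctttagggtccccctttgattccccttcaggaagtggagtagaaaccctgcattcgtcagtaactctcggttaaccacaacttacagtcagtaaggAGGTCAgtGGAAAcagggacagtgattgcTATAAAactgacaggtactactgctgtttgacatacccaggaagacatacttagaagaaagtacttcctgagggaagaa

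Both regions held a TATA box on the strand of the gene, which began 31 bases before the start site in Il17a and 29 bases before it in Il17f. Of 32851 promoters of this length, 13.6% hold that motif on either strand. Both also held 1 ROR element core, the motif read by the nuclear receptors of the ROR family, which 16.3% of promoters hold. In Il17a it lay on the opposite strand, from 120 to 115 bases before the start site, and in Il17f on the strand of the gene, from 58 to 53 bases before it. None of the other 5 matched members, Il17c, Il17d, Il17rb, Il17rc and Il17re, held the ROR core in this window, and among them a TATA box was matched in Il17c alone. An AP-1 element, held by 7.81% of promoters, was matched in Il17a and in Il17rb. The NFAT core, in 61.3% of promoters, had 2 matches in Il17f and none in Il17a. The STAT element was found in Il17d and not in the other 6 windows, against 8.30% of all promoters. Such matches describe letters and are no evidence of binding.

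The other 4 cytokine genes gave low signals and small changes. Il17b, Il17c and Il17d had both group means under the background reference of 5.80, and Il25 had a mean of 5.75 with JQ1 and 6.01 with DMSO. These cytokines are known mainly from epithelial and other non-T cells.

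Il25 encodes IL-25, also called IL-17E, which promotes type 2 responses. Its log2 signal was 6.04 and 5.45 with JQ1, against 6.09 and 5.92 with DMSO, and the groups overlapped. The log2 change was -0.26 (SE 0.23, 95% interval -0.84 to 0.32). Without JQ1 replicate 2 it was 0.03 and without JQ1 replicate 1 -0.55, so the value turned on which JQ1 array was kept.

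Il17c encodes IL-17C, an epithelial cytokine. It read 5.59 and 5.91 with JQ1, against 5.91 and 5.33 with DMSO, with overlapping groups and a log2 change of 0.13 (SE 0.25). Its sign turned without JQ1 replicate 2 (-0.03) or DMSO replicate 2 (-0.16). Il17b, a ligand of IL-17RB, read 5.33 and 5.50 with JQ1, against 5.33 and 5.39 with DMSO, a log2 change of 0.06 (SE 0.15) and -0.03 without JQ1 replicate 2. Neither gene showed a difference beyond the gap between its own replicates.

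Il17d encodes IL-17D. It read 4.66 and 4.40 with JQ1, against 4.22 and 4.39 with DMSO, so both JQ1 values were the higher ones, as for 10% of all genes. The groups were only 0.01 apart, while replicates differed by 0.25 with JQ1 and 0.17 with DMSO. The log2 change was 0.22 (SE 0.17, adjusted p = 0.715 in limma). For these 4 cytokines together the intervals ran from -0.84 to 0.75, which leaves room for signals up to 1.79-fold lower or 1.68-fold higher.

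No difference between the groups was detected for the receptor chains. Their intervals were narrower than those of Il25 and Il17c, but not all narrower than those of Il17b and Il17d. Il17ra, the shared chain, was the 1 receptor gene well above the background reference. Its log2 signal was 8.36 and 8.37 with JQ1, against 8.50 and 8.15 with DMSO. The JQ1 values lay between the DMSO values. The log2 change was 0.04 (SE 0.18, 95% interval -0.40 to 0.48, adjusted p = 0.973 in limma), which leaves room for a signal up to 1.32-fold lower or 1.39-fold higher. The sign turned to -0.14 without DMSO replicate 2.

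Il17rc, the partner chain for IL-17A and IL-17F, read 6.11 and 5.99 with JQ1, against 6.21 and 5.92 with DMSO. The JQ1 values again lay inside the range of the DMSO values, just above the background reference. The log2 change was -0.02 (SE 0.17, 95% interval -0.44 to 0.41), and it was 0.10 after median centring, so it has no direction.

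Il17re, the chain for IL-17C, read 5.12 and 5.30 with JQ1, against 5.34 and 5.15 with DMSO, under the reference on all 4 arrays and with overlapping groups. Its log2 change was -0.03 (SE 0.16) and 0.09 after centring. Il17rb, the chain for IL-25, read 4.95 and 4.87 with JQ1, against 4.97 and 5.11 with DMSO, also under the reference. Both JQ1 values were the lower ones by 0.02, while replicates differed by 0.08 with JQ1 and 0.14 with DMSO. The log2 change was -0.13 (SE 0.15), close to the median of all genes. Over the 4 receptor chains the intervals ran from -0.50 to 0.48, and a signal more than 1.41-fold lower lay outside them.

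Counted over the family, both JQ1 arrays were below both DMSO arrays for 3 of 10 members (Il17f, Il17a and Il17rb), against 31.4% of all genes, a share like that of the array as a whole. That count was 2 after each of the 3 scalings. With an array left out the pattern is met more easily. Its share of all genes was not computed there, so those counts are not given.

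Il17a and Il17f lie side by side on mouse chromosome 1, and Il17re and Il17rc side by side on chromosome 6, so the nearest measured genes were read with them. Next after Il17f in chromosome order came Mcm3, a subunit of the replicative helicase, with log2 signals of 8.92 and 9.22 with JQ1, against 10.04 and 9.74 with DMSO. The groups did not overlap, and the log2 change was -0.82 (SE 0.19, limma adjusted p = 0.332). Paqr8, a membrane progestin receptor gene, followed with 5.58 and 5.44 with JQ1, against 6.19 and 5.83 with DMSO, a log2 change of -0.51 (SE 0.18, limma adjusted p = 0.466). With JQ1, both Paqr8 arrays lay under the background reference. On the other side came Pkhd1, which encodes the ciliary protein fibrocystin, and Tfap2b, a transcription factor gene. Counted from the start coordinate of Il17a, Pkhd1 lay at -673 kb and Tfap2b at -1522 kb, against 72 kb for Mcm3. Pkhd1 and Tfap2b were under the background reference in both groups, at log2 changes of 0.05 and -0.07. Around the receptor pair, the endoplasmic reticulum gene Jagn1 was at -0.17, Creld1 at -0.18, Cidec at -0.01 and Prrt3 at -0.10, none at an unadjusted p under 0.05, a level that both Mcm3 and Paqr8 reached. Paqr8 lost it without JQ1 replicate 1, JQ1 replicate 2 or DMSO replicate 1 and after median centring or quantile normalization. The changes at the cytokine locus were thus of unequal size from gene to gene, -3.41 for Il17f beside -0.82 for Mcm3.

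**Figure D3:**
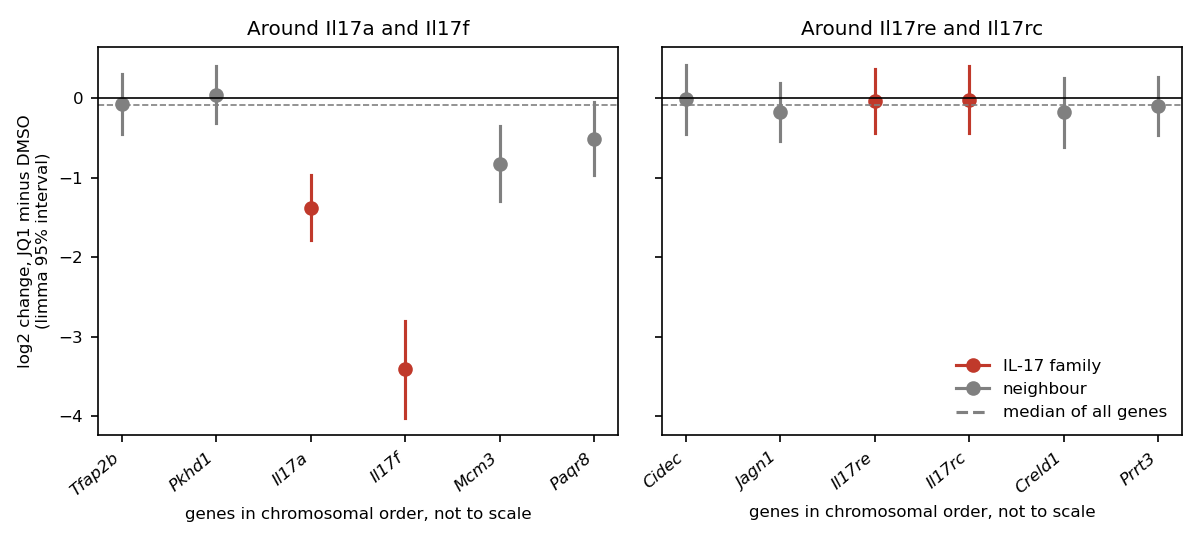
The log2 change, JQ1 minus DMSO, with limma's 95% interval (vertical axis, n = 2 arrays per group) is drawn for the genes nearest to Il17a and Il17f (left) and to Il17re and Il17rc (right), in chromosome order and not to scale. Red marks family members and grey their neighbours. Il17f lies well below every neighbour. Il17a, at -1.37, lies lower than Mcm3, at -0.82, but their intervals overlap. All genes around the receptor pair lie near the dashed median of all genes.

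Genes that act with the family were read from lists, in which 73 genes were measured. At an unadjusted p under 0.05, 15 of them were lower and 3 higher with JQ1 in limma, against 8.26% of all genes lower and 1.72% higher, and none passed over all genes. Without JQ1 replicate 1 there were 6 lower and without DMSO replicate 1 there were 7, and without JQ1 replicate 2 none was higher. After quantile normalization or cyclic loess 6 were higher.

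On the receiving side, the genes that carry the signal of IL-17 receptors gave 3 of 15 lower, against 8.26% of all genes, and none higher, against 1.72%. Traf3ip2, which encodes Act1, had log2 signals of 6.02 and 6.12 with JQ1, against 6.56 and 6.57 with DMSO. The groups lay apart by more than their replicates differed, and the log2 change was -0.49 (SE 0.14, limma adjusted p = 0.390). Traf6 had a log2 change of -0.45 (SE 0.16), from arrays at 8.70 and 8.95 with JQ1, against 9.26 and 9.29 with DMSO. Traf2, another adaptor, was at -0.40 (SE 0.14). After each of the 3 scalings 1 of the 3 remained at that level, Traf3ip2, and none did without JQ1 replicate 1, DMSO replicate 1 or DMSO replicate 2. Traf2 was also lost without JQ1 replicate 2 and with the replicate block. Il17rd, a further receptor-like gene of the family, was at -0.13 (SE 0.20) with overlapping groups under the reference, and the list's median change was -0.13.

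Genes that IL-17 is known to induce in responding cells gave 2 of 18 lower and 2 higher, against 8.26% and 1.72% of all genes, so the lower share was near that of the array as a whole. Their median change was -0.07, and 14 of the 18 lay under the background reference in both groups. The chemokine gene Ccl20 read 5.54 and 5.78 with JQ1, against 6.47 and 6.20 with DMSO, a log2 change of -0.67 (SE 0.18) that lost the unadjusted level without JQ1 replicate 1 or DMSO replicate 1. With JQ1, both Ccl20 arrays lay under the background reference. The chemokine gene Cxcl5 was at -0.66 (SE 0.16) with all arrays under the reference. The 2 higher genes encode antimicrobial proteins of neutrophils and epithelium. S100a9 read 9.07 and 8.42 with JQ1, against 5.89 and 7.88 with DMSO, a log2 change of 1.86 (SE 0.65) in which the DMSO replicates differed by 1.99. It was 0.86 without DMSO replicate 1 and 2.85 without DMSO replicate 2. Lcn2 read 5.38 and 5.88 with JQ1, against 5.10 and 4.64 with DMSO, a log2 change of 0.76 (SE 0.25). Both its group means lay under the background reference, and only JQ1 replicate 2 was above it. The 5 measured myeloid markers, which include Itgam and Csf1r, had mean log2 signals per array of 5.03 to 5.09 with JQ1 and 4.94 to 5.17 with DMSO, none with an unadjusted p under 0.05, and their part in S100a9 and Lcn2 was not tested. S100a9 kept an unadjusted p under 0.05 without DMSO replicate 2 and lost it without any other single array. Lcn2 lost it without JQ1 replicate 2 or DMSO replicate 2.

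**Figure D4:**
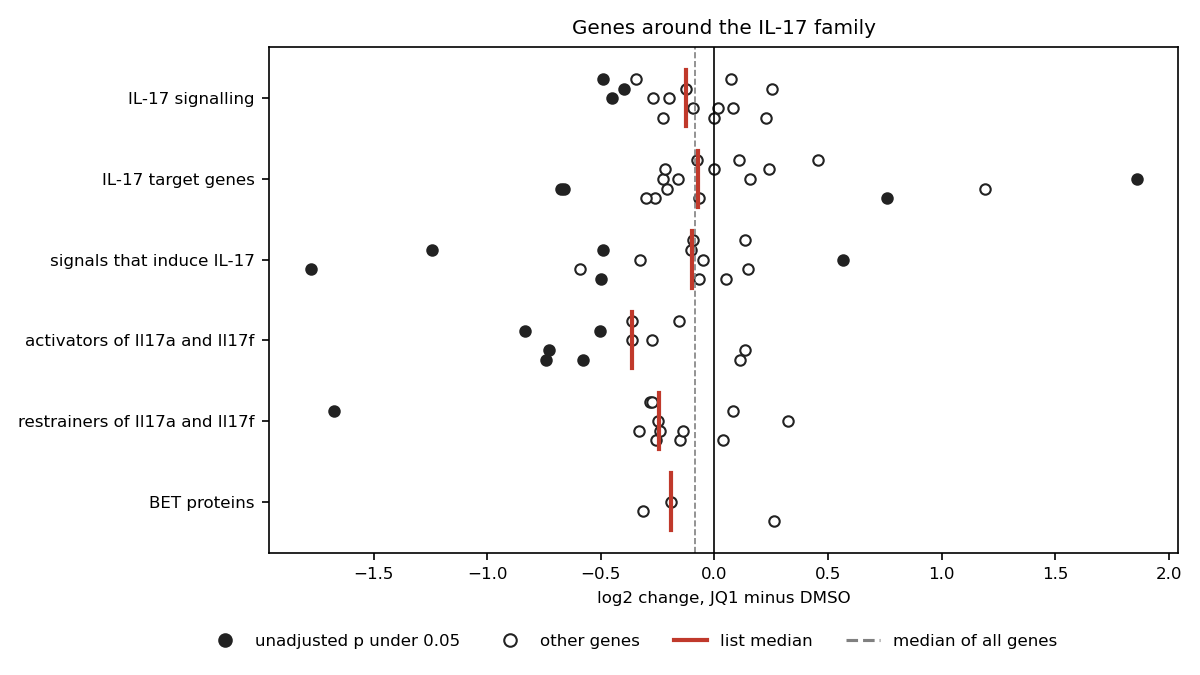
Each circle is a gene, placed by its log2 change with JQ1 minus DMSO (horizontal axis), in 6 lists of genes around the IL-17 family. Filled circles have an unadjusted limma p under 0.05, red bars are list medians and the dashed line is the median of all genes. The activators of Il17a and Il17f have the lowest median, -0.36, and S100a9, at 1.86, is the point farthest to the right.

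On the inducing side, the signals that switch on IL-17 gave 4 of 14 lower and 1 higher, against 8.26% and 1.72% of all genes, with a median change of -0.10. Il1r1, the receptor for IL-1, read 5.65 and 6.06 with JQ1, against 7.67 and 7.59 with DMSO, a log2 change of -1.78 (SE 0.19). The IL-23 receptor gene Il23r read 4.41 and 4.34 with JQ1, against 5.52 and 5.72 with DMSO, a change of -1.24 (SE 0.15) under the background reference throughout. Smad3, which relays TGF-β, was at -0.49 (SE 0.15), and lost the unadjusted level without JQ1 replicate 1 or DMSO replicate 1. In the opposite direction, Il21r, the receptor for IL-21, read 8.18 and 8.55 with JQ1, against 7.77 and 7.83 with DMSO, a change of 0.57 (SE 0.18) that lost that level without JQ1 replicate 2, DMSO replicate 1 or DMSO replicate 2. These 4 genes were named by smallest p, and their limma adjusted p ran from 0.175 for Il1r1 to 0.413 for Il21r. Over the whole list, both JQ1 arrays were below both DMSO arrays for 8 of 14 genes, against 31.4% of all genes. They were above for 2, against 10%. Without JQ1 replicate 1 or DMSO replicate 1, 2 genes of the list were lower.

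Transcription factors that activate Il17a and Il17f gave 5 of 11 lower and none higher, against 8.26% and 1.72% of all genes. Their median change was -0.36, beside -0.09 for all genes. Lower on both JQ1 arrays were 8 of the 11, against 31.4% of all genes, and higher on both none, against 10%. Rora, a ROR-family nuclear receptor, read 8.05 and 7.91 with JQ1, against 8.82 and 8.81 with DMSO, a log2 change of -0.83 (SE 0.15). Ahr, the aryl hydrocarbon receptor, read 7.92 and 8.06 with JQ1, against 8.64 and 8.82 with DMSO, a change of -0.74 (SE 0.16). Batf, an AP-1 factor, was at -0.73 (SE 0.19) and Satb1, a chromatin organiser, at -0.58 (SE 0.17). These 4 genes were named by smallest p, and none passed over all genes, with adjusted p in limma between 0.243 and 0.390. Their changes were smaller than those of Il17f and Il17a. After each of the 3 scalings 4 of the 11 were lower at that level, and without JQ1 replicate 1 it was 2 and without DMSO replicate 1 it was 3. Batf and Satb1 were lost without either of these arrays.

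Genes known to restrain IL-17 gave 1 of 12 lower and none higher, near the 8.26% and 1.72% of all genes, with a median change of -0.24. That gene was Il2, a cytokine that acts against TH17 cells through STAT5, which read 6.31 and 6.76 with JQ1, against 8.28 and 8.14 with DMSO. Its log2 change was -1.67 (SE 0.20, limma adjusted p = 0.194). Of the BET genes, the targets of JQ1, Brd2 was at 0.26 (SE 0.18), Brd3 at -0.32 (SE 0.14) and the testis gene Brdt at -0.19 (SE 0.20), none at an unadjusted p under 0.05. After quantile normalization and after cyclic loess Brd2, at 0.50 and 0.46, had an unadjusted p under 0.05.

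The genes whose pattern lay nearest to the pair were found among 13568 genes by Euclidean distance between log2 profiles over the 4 arrays, each centred on its own mean. This is a description with no test, since the same arrays gave the change. Nearest to Il17f was Gzmb, which encodes granzyme B, at a distance of 0.41, with a log2 change of -3.42. It was followed by S100a6 (1.06), Ccr6 (1.19), Cd86 (1.22) and Pdpn (1.36). These other 4 genes had smaller measured drops than Il17f, with log2 changes from -2.68 to -2.22. With JQ1 the means of Gzmb (4.05) and Cd86 (4.00) lay under the background reference, so their drops may be understated. Ccr6 and Pdpn were lowest on JQ1 replicate 2, whereas Il17f was lowest on JQ1 replicate 1. Nearest to Il17a were Xkrx (0.20), Tmem176b (0.21), Rida (0.22), Mcpt8 (0.22) and Lbp (0.22), with changes from -1.57 to -1.28. The JQ1 means of Tmem176b, Mcpt8 and Lbp also lay under the reference. The profiles were not scaled, so the distance also depends on the size of a drop. Il17f was not among the 5 nearest to Il17a, nor Il17a among the 5 nearest to Il17f. With log2 changes of -3.41 for Il17f and -1.37 for Il17a this followed from the sizes. It does not show whether their patterns differ in shape.

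**Figure D5:**
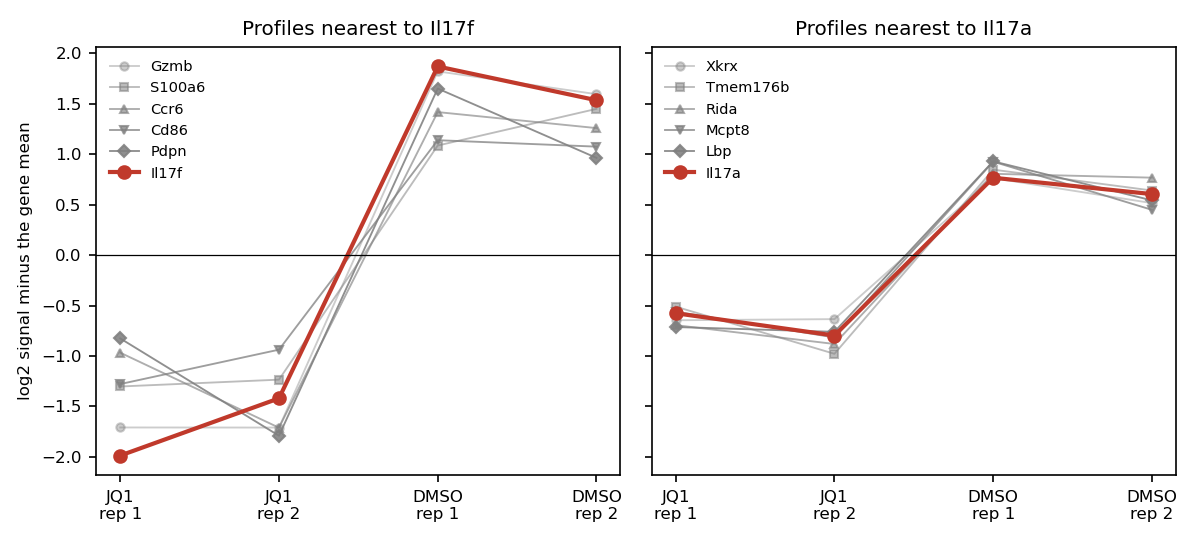
Log2 signals minus each gene's mean over the 4 arrays (vertical axis) are drawn per array (horizontal axis) for Il17f (left, red) and Il17a (right, red) and the 5 genes nearest to each (grey). Gzmb runs close to Il17f at a distance of 0.41, while the 5 genes beside Il17a lie at distances from 0.20 to 0.22.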

How the data were processed

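RNA of 4 samples (2 JQ1, 2 DMSO) was amplified with a whole-transcript kit and read on Affymetrix exon arrays, per the labels' protocols. The authors deposited log2 signals, made with Affymetrix Expression Console and RMA per the submitters' processing notes. RMA corrects background, quantile-normalizes arrays and summarises probes. No version or definition of a row is stated in the labels. The notes name hg19, a human build, so array rows carry no coordinates here. Of 23332 rows, 14996 had 1 gene in the platform annotation, 1019 several and 7317 none, and 14941 were matched to RefSeq (GRCm38.p6) for current symbols. The row with the highest mean stood for each of 135 genes with several rows. limma 3.58.1 in R 4.3.3 (lmFit, eBayes) was fitted to all 14860 genes, JQ1 minus DMSO, with 2 residual and 3.43 prior degrees of freedom and Benjamini-Hochberg adjustment over all genes. It was tested on simulated data. The number of arrays limits the precision. A change is a log2 difference, and a fold is 2 to its power. Members, lists, motifs and tests were chosen with earlier results of these data known. Genes were named by rule: all members, up to 4 per list by smallest p under 0.05 (otherwise the 2 largest changes), Il17rd, Traf3ip2 and BET genes, 2 neighbours on each side and the 5 nearest profiles. S100a9's marker values, Cd8a, Thy1 and Cldn4 were added after their values were seen. The alternatives were a variance trend, a robust prior, 3 scalings (quantile, median centring, cyclic loess), 2 filters on dim genes, the mean of a gene's rows, the replicate number as a block and each array left out. Figures used matplotlib 3.10.9.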

Additional observations from a re-analysis of the deposited data

How the results depend on the processing

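Il17f and Il17a kept a lower signal and an unadjusted limma p under 0.05 under every alternative fitted, without passing over all genes except with a variance trend (Il17f, log2 change -3.41), above the median signal (Il17f -3.41, Il17a -1.37) and above the 25th percentile (Il17f -3.41). Il17a passed the median filter through its DMSO arrays, so its value there is no support. With single arrays left out the changes ran from -3.69 to -3.12 for Il17f and from -1.48 to -1.26 for Il17a, and the difference between them from -2.43 to -1.64. The number of all genes past the threshold was 1 as reported, 3 with a variance trend, 50 above the median signal, 9 above the 25th percentile, 0 with the replicate number as a block and 0 with any array left out. The replicate numbers are not stated to pair samples, deviations of same-numbered arrays correlated at 0.10 across genes, and with the replicate block Il17f stayed at -3.41 (limma adjusted p = 0.242) and Il17a at -1.37 (adjusted p = 0.305), with 2 members at an unadjusted p under 0.05. That count of members was 2 to 3 with arrays left out, Il25 joining without JQ1 replicate 1. Members lower on both JQ1 arrays numbered 3 to 8 with arrays left out. The members' median change was -0.69 above the median signal, where 4 members were left, and is no support for the same reason. Pathway genes lower numbered 6 to 17 and higher 0 to 4 with arrays left out, and higher ones 6 after quantile normalization and 6 after cyclic loess. Il17rc turned to 0.099 after quantile normalization, 0.10 after centring and 0.072 after cyclic loess, and Il17re to 0.054, 0.085 and 0.047. With arrays left out the ranges crossed 0 for Il17b (-0.031 to 0.14), Il17c (-0.16 to 0.42), Il25 (-0.55 to 0.031), Il17ra (-0.14 to 0.21), Il17rc (-0.16 to 0.13) and Il17re (-0.12 to 0.059). The causes were not tested. Low signals limit what the dim members can show.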
